A study of Mus musculus with 19 samples.

Results

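Kinesins, cytoplasmic dynein and dynactin are the motor proteins, and the motor cofactor, that move cargo along microtubules. The genes were chosen by symbol: names that start with Kif or Dctn and a digit, names that start with Dync, and Klc1, Klc2, Kifap3, Dynll1, Dynll2 and Dynlt3. Of the 54232 genes counted, 61 had such a name, and 55 of these had at least 10 counts in at least 4 of the 19 mice. The 6 others were Kif12, Kif2b, Kif28, Kif4-ps, Kif16bos and Kif22-ps, with at most 11 counts in any mouse. The 55 genes comprise 38 genes of 12 kinesin classes, light chains and the adaptor Kifap3 included, 5 genes of cytoplasmic dynein-1, 2 of cytoplasmic dynein-2, 3 dynein light chains, 6 of dynactin, and Kif1bp, which the name rule takes in although it encodes a kinesin-binding protein and not a motor.

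RNA of the striatum was sequenced from 19 mice on a C57/BL/6 background, all 6 months old: 7 were WT, and each of the genotypes KI-96, KI-571 and KI-FL had 4. KI-FL mice are HD140Q knock-in mice, a model of Huntington's disease in which full-length mutant HTT with an expanded polyQ repeat is expressed from the mouse Htt gene under its own promoter. For KI-96 and KI-571, the same mutant allele was truncated with CRISPR-Cas9, so that N-terminal mutant fragments are made, the shorter of which is that of KI-96 mice. The paper compared motor function in heterozygous KI mice, which also carry a normal allele in every cell, and used homozygous mice elsewhere. It reports that homozygous KI-96 and KI-571 mice do not survive, but its RNA-seq methods do not state the zygosity. The labels give no zygosity, no sex and no batch.

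Kinesins mostly walk toward the plus ends of microtubules, which lie at the tips of axons, and dynein walks toward the minus ends, near the cell body. Dynactin links dynein to cargo and keeps it moving. HTT and its partner Hap1 are scaffolds that bind both kinds of motor, and axonal transport is a long-standing subject in Huntington's disease. Other kinesins do not carry cargo in neurons but build the mitotic spindle or serve in cilia.

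Counted reads totalled 12669809 to 26388542 in a mouse (median 18202412), of which the motor genes took 1.21% to 1.49%. Levels are given as CPM, read counts relative to the library total after scaling with edgeR's TMM factors, and as CPM per kilobase of exon where genes are compared with each other. All 12 marker genes of striatal projection neurons were detected in every mouse, with sums of 6107 to 9614 CPM in WT, 5712 to 9046 in KI-96, 6941 to 8747 in KI-571 and 7357 to 8727 in KI-FL mice. The share of reads outside genes was 24.2% in KI-96 replicate 3 and 11.1% to 15.99% elsewhere. In KI-FL replicate 4, 3186 of the 18521 tested genes had 0 counts, against at most 222 in the other mice, and 5 of the motor genes were at 0. Xist, the RNA of the inactive X chromosome of females, was high in every KI-96 mouse, in WT replicate 1 and in KI-FL replicate 2 and low in the rest. Genotype and sex therefore cannot be told apart between KI-96 and KI-571 mice, and they are separated by 1 mouse only in KI-96 against WT and in KI-96 against KI-FL. WT replicates 5 to 7 did not overlap WT replicates 1 to 4 for 10 of the 55 motor genes (18.2%) and for 10.8% of all tested genes. In bulk striatum, fewer cells of a type and less RNA per cell cannot be told apart.

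In WT striatum, Kif5a, the neuronal heavy chain of kinesin-1, was the highest motor gene per length, at 583 ± 52.8 CPM per kilobase (SD, n = 7). Dynll2, a small dynein light chain that also serves as a hub protein outside dynein, followed at 371 ± 71.6 CPM per kilobase. Then came the heavy chain Kif5c at 144, the synaptic vesicle precursor motor Kif1a at 138 and the kinesin light chain Klc1 at 137 CPM per kilobase, whose ranges overlapped. The ranges of neighbours in this order over the 7 WT mice did not overlap for 5 pairs, namely Kif5a and Dynll2, Dynll2 and Kif5c, Klc1 and Dctn1, Kif17 and Kif3b, and Dctn4 and Dync2h1. The dynein heavy chain Dync1h1 stood at 39.4 ± 4.37 CPM per kilobase.

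**Figure D1:**
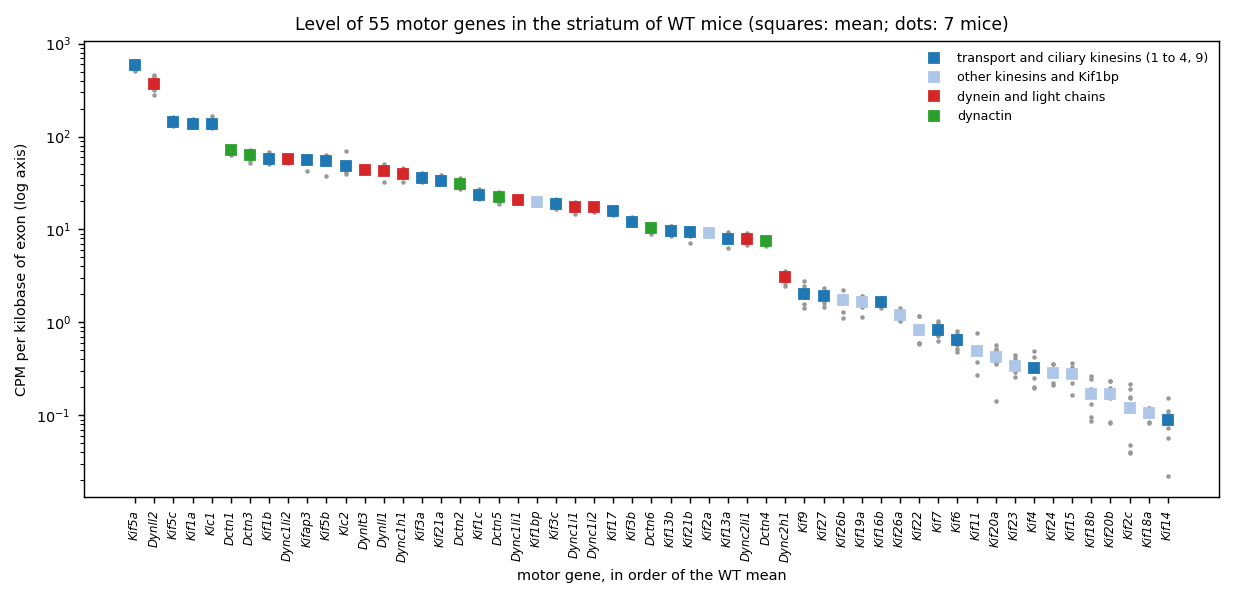
Levels of the 55 motor genes in WT striatum in CPM per kilobase of exon on a log axis, in order of the mean; squares are means of 7 mice coloured by motor group and dots are single mice. Kif5a lies highest at 583 and Kif14 lowest at 0.0884, and the genes of mitosis and several of cilia lie toward the right of the plot, beside others such as Kif16b and Kif26b.

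At the other end of the order stood the kinesins of dividing cells, such as the spindle motor Kif11 at 0.491, Kif4 at 0.321, and Kif14, a kinesin of cytokinesis, at 0.0884 CPM per kilobase. In all, 37 of the 55 genes had a mean of at least 10 CPM in WT mice, and 18 lay under it. In kinesin-1, Kif5a made up 60.3 ± 3.08% of the summed level per length in WT mice (SD, n = 7) and the widely expressed heavy chain Kif5b 5.61 ± 0.758%. In kinesin-3, Kif1a made up 57.8 ± 2.11% and in kinesin-4, the cortical microtubule kinesin Kif21a 73.0 ± 2.10%. Among the light chains, Dynll2 made up 80.7 ± 3.15%.

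To ask whether the form of mutant HTT goes with motor gene expression, each KI genotype was compared with WT over all 18521 tested genes with edgeR's quasi-likelihood test and Benjamini-Hochberg adjustment. At an adjusted p under 0.05, 0 of the 55 motor genes passed in KI-96 mice (0.027% of all tested genes did), 0 in KI-571 (0.0324%) and 0 in KI-FL mice (0.194%). At an unadjusted p under 0.05, 9 motor genes stood out in KI-96 mice, 7 higher and 2 lower (7.45% of all tested genes did, 4.36% higher and 3.09% lower). In KI-571 mice 5 did, 2 higher and 3 lower (7.72% of all tested genes, 3.89% and 3.83%). In KI-FL mice 11 did, 4 higher and 7 lower (16.7% of all tested genes, 7.89% and 8.84%). As shares of the 55 genes these are 16.4%, 9.09% and 20%, and no test was made of the shares. With DESeq2 as the test, 0 motor genes passed the adjusted threshold in KI-96 mice (0.14% of all genes), 1 in KI-571 (0.583%) and 5 in KI-FL mice (2.69%). The median log2 fold change of the 55 genes was -0.037 in KI-96, -0.038 in KI-571 and -0.020 in KI-FL mice, beside -0.015, -0.0089 and -0.028 over all tested genes.

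These counts moved with the mice used and with Xist in the model. In KI-96 mice the count was 4, 1 higher and 3 lower, without KI-96 replicate 3 (6.58% of all tested genes), 5 without KI-96 replicate 1 (5.24%) and 5 without WT replicate 7 (5.74%). In KI-571 mice it was 9 without KI-571 replicate 4 (9.52%) and 8 without KI-96 replicate 3 (9.28%), which enters through the shared spread. Against WT replicates 1 to 4 alone, 2 motor genes in KI-96 mice (2.91% of all tested genes), 4 in KI-571 (4.13%) and 6 in KI-FL mice (8.5%) had an unadjusted p under 0.05. With Xist as a covariate, 0 did in KI-96 mice (1.17% of all tested genes), 4 in KI-571 (7.38%) and 11 in KI-FL mice (15.4%). Without KI-96 replicate 3, KI-571 replicate 1 and KI-FL replicate 4, chosen after seeing the data, 7, 7 and 10 did (10.6%, 11.3% and 17.9% of all tested genes).

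**Figure D2:**
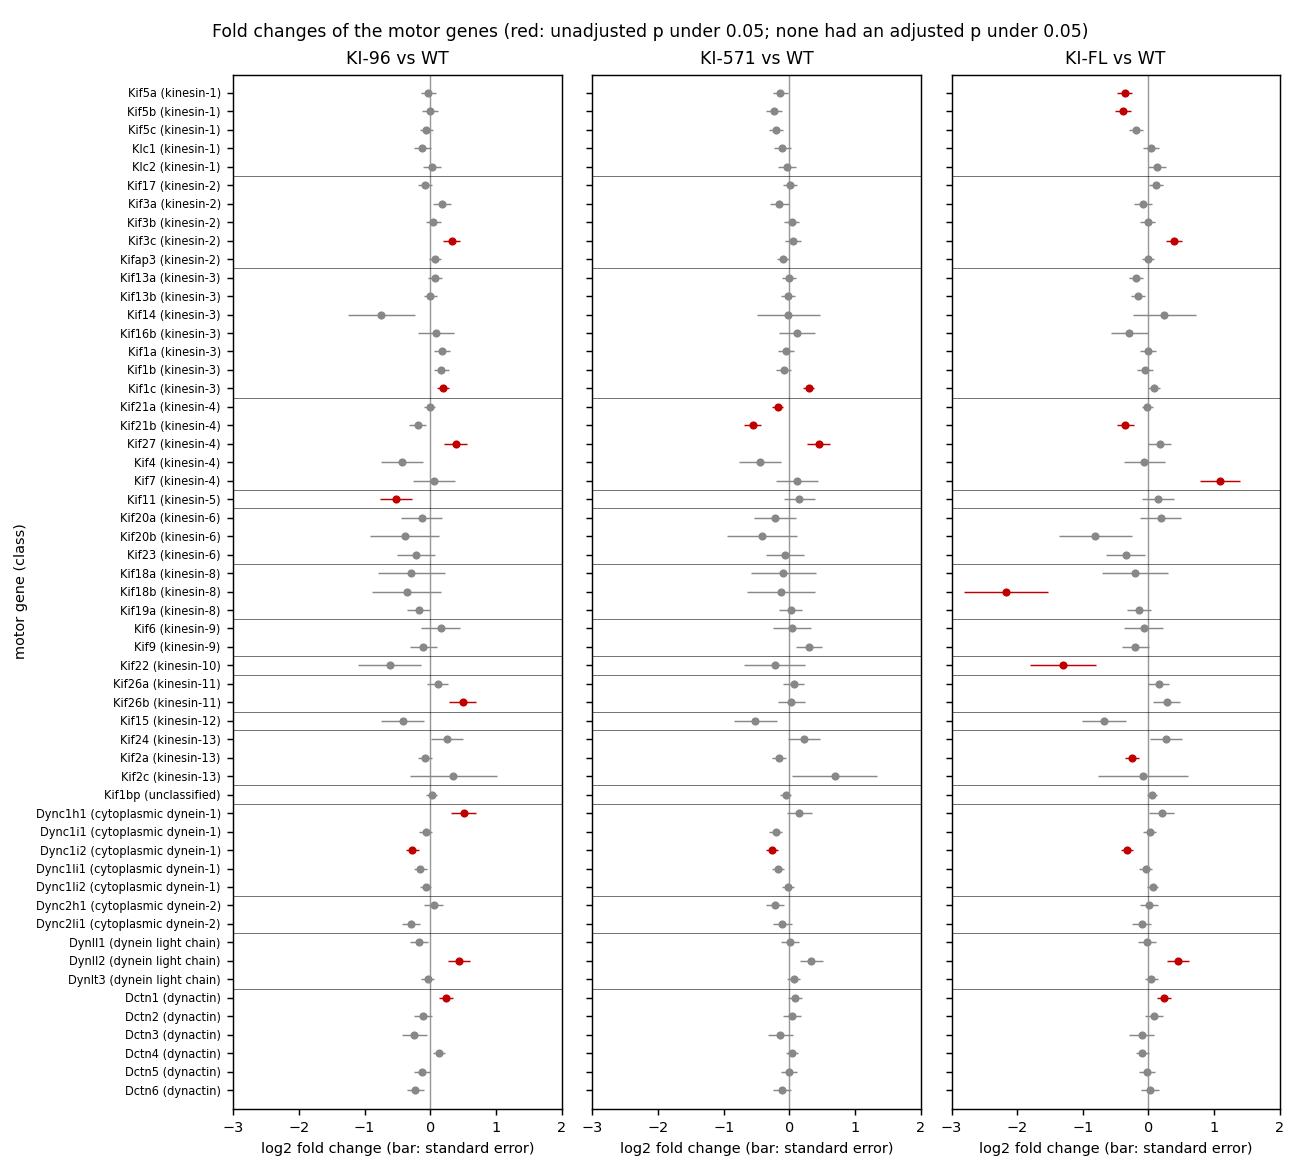
Log2 fold change with its standard error for each of the 55 motor genes in mice of the 3 KI genotypes (KI-96, KI-571, KI-FL) against WT, by class; red marks an unadjusted p under 0.05 in edgeR's test. Dync1i2 is red on the left of 0 in all 3 panels, which share the WT mice.

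Kinesin-1 is the main motor of fast transport along axons, built of paired heavy chains (Kif5a, Kif5b or Kif5c) and light chains (Klc1 or Klc2). All 3 heavy chains were lower in KI-FL mice than in WT mice on average, and both light chains were not. Kif5a (ENSMUSG00000074657.5; GRCm38 chromosome 10 from 127225696 to 127263348, minus strand) ranged from 3535 to 4482 CPM in WT mice, with a median of 4162. Its level was 3999, 4294, 3175 and 4471 CPM in the 4 KI-96 mice and 3629, 3837, 3817 and 3557 CPM in the 4 KI-571 mice. The 4 KI-FL mice were at 3036, 3454, 3380 and 2814 CPM, all under the lowest WT mouse and the lowest KI-571 mouse. The log2 fold change in KI-FL against WT mice was -0.36 (standard error, SE, 0.11, adjusted p = 0.134), which does not pass the threshold in edgeR's quasi-likelihood test, and with DESeq2 the adjusted p was 0.0113. Against WT replicates 1 to 4, which were at 3535 to 4203 CPM, it was -0.29 (edgeR adjusted p = 0.566). Without KI-FL replicate 4, the lowest mouse, it was -0.31.

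Kif5b, the heavy chain found in most cell types, was at 300 to 501 CPM in WT mice with a median of 451. In KI-FL mice it was at 328, 330, 304 and 362 CPM, which overlaps WT only through WT replicate 3 at 300 CPM. The log2 fold change in KI-FL mice was -0.39 (SE 0.12, adjusted p = 0.134 in edgeR's test), with DESeq2 the adjusted p was 0.0480, and without WT replicate 3 the log2 fold change was -0.47 (adjusted p = 0.0501 in edgeR's test). WT replicate 3 also had the highest sum of the 8 cortical excitatory neuron markers, 1098 CPM where the median of the WT mice was 93.0 CPM, and the part of this in its Kif5b level was not tested. Kif5b is also made in glia, and markers of oligodendrocytes and astrocytes, but not of microglia, were lower on average in KI-FL mice. The 8 oligodendrocyte markers summed to 10120 to 11730 CPM there and to 12400 to 15300 CPM in WT mice other than WT replicate 3, which was again the lowest WT mouse at 10740 CPM. All 8 had log2 fold changes under 0 in KI-FL mice, with a median of -0.25, and so had 7 of 8 astrocyte markers, with a median of -0.26. At an unadjusted p under 0.05 in edgeR's test, 2 oligodendrocyte and 3 astrocyte markers were lower, where 8.84% of all tested genes were. Of the 8 microglia markers, 5 had log2 fold changes above 0, with a median of 0.070. At the same unadjusted threshold, 2 microglia markers were higher and 1 was lower (7.89% and 8.84% of all tested genes). The part of glia in the kinesin-1 values of KI-FL mice was not tested. KI-96 mice were at 422, 385, 471 and 447 CPM, all above the 4 KI-FL mice, with a log2 fold change between these genotypes of 0.38 (SE 0.14, adjusted p = 0.442 in edgeR's test). KI-571 mice spanned 301 to 419 CPM and overlapped both.

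Kif5c, a neuronal heavy chain, was at 920 to 1152 CPM in WT, 850 to 1050 in KI-96, 747 to 1087 in KI-571 and 884 to 935 in KI-FL mice, and the log2 fold change in KI-FL mice was -0.19 (SE 0.10, adjusted p = 0.366 in edgeR's test). Klc1 was at 508 to 674 CPM in WT and 551 to 589 CPM in KI-FL mice, and Klc2 at 162 to 286 and 191 to 253 CPM, so that both overlapped. As a share of kinesin-1 per length, Kif5a was 60.3 ± 3.08% in WT (SD, n = 7), 60.7 ± 2.27% in KI-96, 60.6 ± 1.13% in KI-571 and 55.6 ± 2.92% in KI-FL mice (SD, n = 4). The log2 ratio of Kif5a to Kif5b in KI-FL mice was 3.26 ± 0.229 (SD, n = 4) beside 3.25 ± 0.178 in WT mice (SD, n = 7; two-sided exact permutation test, p = 0.921, adjusted p = 0.961 over 24 ratio tests). The class median was -0.033 in KI-96, -0.14 in KI-571 and -0.19 in KI-FL mice.

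**Figure D3:**
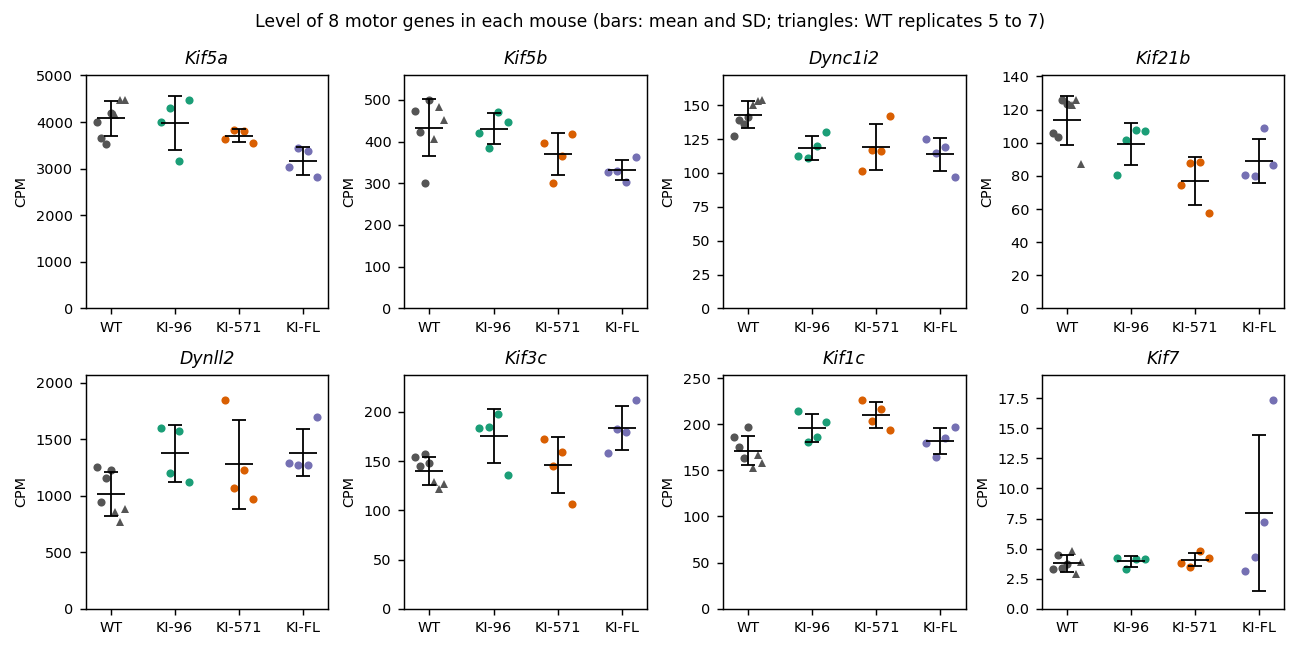
CPM of 8 motor genes in each mouse by genotype, with the mean and SD of each genotype as bars and WT replicates 5 to 7 as triangles. The KI-FL mice lie under every WT mouse for Kif5a and Dync1i2 and above every WT mouse for Dynll2 and Kif3c, and the Kif7 mean in KI-FL mice rests on a mouse at 17.4 CPM.

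Kinesin-2 carries cargo in axons and builds cilia, as Kif3a with Kif3b or Kif3c and the adaptor Kifap3, or as the dendritic motor Kif17. Of the 5 genes, Kif3c had the largest difference from WT in KI-96 and in KI-FL mice. Kif3c (ENSMUSG00000020668.10; chromosome 12 from 3365132 to 3406494, plus strand) was at 122 to 157 CPM in WT mice with a median of 145. It was at 184, 185, 198 and 136 CPM in KI-96, at 172, 146, 159 and 107 CPM in KI-571 and at 159, 183, 180 and 212 CPM in KI-FL mice. The KI-FL mice all lay above the WT mice, the lowest just above the highest WT mouse. The log2 fold change was 0.39 in KI-FL (SE 0.12, adjusted p = 0.138), 0.32 in KI-96 (SE 0.12, adjusted p = 0.629) and 0.057 in KI-571 mice by edgeR's test. With only the WT and KI-FL mice in the model, the adjusted p in KI-FL mice was 0.0497 by edgeR's test (1.89% of genes passed there). WT replicates 5 to 7, at 122 to 129 CPM, lay under WT replicates 1 to 4, at 145 to 157 CPM, and against the latter the KI-96 value was 0.22. Of the exon bases of Kif3c, 40.7% overlap antisense genes (1110002L01Rik and Gm48512), and the strand setting of the counting is not given in the sources used here, so that reads of these genes cannot be told apart.

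The other kinesin-2 genes overlapped WT in KI-FL mice. Kif3a was at 113 to 130 CPM (WT 116 to 146), Kifap3 at 212 to 236 CPM (WT 172 to 245) and Kif17 at 71.1 to 84.9 CPM (WT 65.8 to 77.8). Kif3b was at 73.6 to 76.1 CPM in 3 KI-FL mice and at 43.7 CPM in KI-FL replicate 4 (WT 63.1 to 76.4). In KI-96 relative to KI-571 mice, the log2 fold change of Kif3a was 0.33 (SE 0.16, adjusted p = 0.900 in edgeR's test), and 0.062 without KI-96 replicate 3, in which Kif3a was at 221 CPM. The class median was 0.071 in KI-96, 0.0084 in KI-571 and -0.0026 in KI-FL mice.

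Kinesin-3 holds the vesicle motors Kif1a, Kif1b, Kif13a, Kif13b and Kif16b, the Golgi and dense-core vesicle motor Kif1c, and the mitotic Kif14. Kif1c (ENSMUSG00000020821.17; chromosome 11 from 70700548 to 70731964, plus strand) was at 153 to 197 CPM in WT mice with a median of 166. In KI-571 mice it was at 226, 203, 217 and 194 CPM, of which 3 lay above every WT mouse. The log2 fold change was 0.29 (SE 0.085, adjusted p = 0.248 in edgeR's test) in KI-571, 0.19 in KI-96 and 0.084 in KI-FL mice. Kif1a was at 1170 to 1455 CPM in WT and 1216 to 1381 CPM in KI-FL mice, and Kif1b at 897 to 1198 and 970 to 988 CPM. Across the KI mice, both were highest in KI-96 replicate 3 (1701 and 1382 CPM) and lowest in KI-571 replicate 4 (903 and 761 CPM). Kif13a, named after its values were seen, was higher in every KI-96 mouse than in every KI-FL mouse (62.80 to 71.9 against 48.0 to 62.77 CPM, nearly touching). The class median was 0.086 in KI-96, -0.015 in KI-571 and -0.054 in KI-FL mice.

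Kinesin-4 holds Kif21a and Kif21b, which slow microtubule growth in neurons, the ciliary Kif7 and Kif27, of which Kif7 serves Hedgehog signalling, and the chromosome motor Kif4. Kif21b (ENSMUSG00000041642.18; chromosome 1 from 136131389 to 136177998, plus strand) was at 87.3 to 126 CPM in WT mice with a median of 123. Its level was 74.4, 87.5, 88.4 and 57.6 CPM in KI-571 mice, 80.7, 102, 108 and 107 CPM in KI-96 mice and 80.7, 80.0, 109 and 86.4 CPM in KI-FL mice. In KI-571 mice 2 of 4 lay under every WT mouse, and WT replicate 7 at 87.3 CPM stood at the level of the other 2. The log2 fold change in KI-571 mice was -0.56 (SE 0.13, adjusted p = 0.115 in edgeR's test), the smallest unadjusted p of a motor gene in any single genotype at 0.000312. DESeq2 gave an adjusted p of 0.0207, and edgeR without the filter on low counts gave 0.0333 (0.212% of genes passed there). Without KI-571 replicate 4, the lowest mouse, the log2 fold change was -0.44, and with WT replicates 1 to 4 as the reference -0.57. The log2 fold changes in KI-96 and KI-FL mice were -0.19 and -0.35, and in KI-96 relative to KI-571 mice it was 0.37 (SE 0.14, adjusted p = 0.789 in edgeR's test).

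Kif21a, the paralog of Kif21b, was at 204, 179, 202 and 178 CPM in KI-571 mice, and every WT mouse, at 205 to 249 CPM, lay above these. It was the only 1 of the 55 genes whose KI-571 and WT mice did not overlap, where 1.55% of all tested genes did not (0.67% lower), and its log2 fold change was -0.18 (SE 0.084, adjusted p = 0.613 in edgeR's test). The log2 ratio of Kif21b to Kif21a was -1.33 ± 0.264 (SD, n = 4) in KI-571 and -0.938 ± 0.201 (SD, n = 7) in WT mice, with overlap (two-sided exact permutation test, p = 0.0303, adjusted p = 0.32 over 24 ratio tests).

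Kif7 (ENSMUSG00000050382.14; chromosome 7 from 79698098 to 79715720, minus strand) had the smallest unadjusted p in KI-FL mice, at a log2 fold change of 1.09 (SE 0.31, adjusted p = 0.104 in edgeR's test, 0.0323 with DESeq2). WT mice were at 2.87 to 4.79 CPM and KI-FL mice at 3.12, 4.28, 7.23 and 17.4 CPM. Without KI-FL replicate 4, the highest, the log2 fold change was 0.38, against KI-96 mice it was -0.32 for KI-96 minus KI-FL in place of -1.02, and against KI-571 mice -0.26 for KI-571 minus KI-FL in place of -0.97. Of the exon bases of Kif7, 20.3% overlap the antisense genes 9330171B17Rik and Ticrr, whose reads cannot be told apart without a known strand setting.

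Kif27 was at 7.55 to 12.1 CPM in WT and at 19.5, 11.7, 10.2 and 12.9 CPM in KI-571 mice (log2 fold change 0.45, SE 0.18, adjusted p = 0.498 in edgeR's test), and 0.22 without KI-571 replicate 1. Beside the ciliary kinesins, the sum of the 10 ependymal markers, from the ciliated cells that line the ventricles, was 41.0 to 101 CPM in WT, 44.5 to 69.98 in KI-96, 71.1 to 111 in KI-571 and 42.4 to 82.5 CPM in KI-FL mice. KI-FL replicate 4 had the lowest of the KI-FL sums, and its Dnah5, Dnah9, Dnah11 and Hydin were at 0. The 6 markers of the choroid plexus, which lies in the ventricles, summed to 5116 CPM in KI-571 replicate 2, 5342 in KI-571 replicate 4 and 3036 CPM in KI-FL replicate 1, and to 36.7 to 408 CPM in the remaining mice. The part of either in the levels of Kif27, Kif9, Kif6 and Kif7 was not tested. In kinesin-9, Kif9 was at 6.08 to 11.9 CPM in WT and 7.06 to 14.8 CPM in KI-571 mice.

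The kinesins of dividing cells were low, and counts rather than CPM show how little they rest on. Kif18b, a kinesin-8 that shortens microtubules, had 6, 13, 8, 6, 23, 18 and 23 counts in WT mice and 4, 3, 1 and 0 counts in KI-FL mice. The fitted log2 fold change was -2.17 (SE 0.64, adjusted p = 0.117 in edgeR's test, 0.0390 with DESeq2), and since KI-FL mice lay at or near a floor of 3 counts its size depends on the fit. In KI-FL replicate 4, the counts of Kif18b, Kif22, Kif2c, Kif20b and Kif18a were all 0. Kif22, which moves chromosomes, had 51 to 162 counts in WT and 48, 18, 39 and 0 in KI-FL mice. Relative to library size these overlapped, with KI-FL replicate 1 at 3.19 CPM and WT mice at 2.86 to 5.74 CPM. WT replicates 5 to 7, at 4.51 to 5.74 CPM of Kif22, lay above WT replicates 1 to 4, at 2.86 to 3.90 CPM.

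Kif11 was lower in all 4 KI-96 mice (2.07 to 3.25 CPM) than in all 4 KI-571 mice (3.34 to 4.76 CPM) and all 4 KI-FL mice (3.72 to 4.58 CPM), while WT mice spanned 2.02 to 5.77 CPM. Its log2 fold change in KI-96 relative to KI-571 mice was -0.68 (SE 0.27, adjusted p = 0.814 in edgeR's test). The 8 dividing cell markers summed to 10.7 to 26.4 CPM in WT, 8.19 to 18.7 in KI-96, 17.5 to 23.6 in KI-571 and 14.4 to 16.6 CPM in KI-FL mice, and their part in the levels of the mitotic kinesins was not tested. Of these markers, Cdk1, Ccnb1, Birc5, Aurkb and Bub1 were at 0 in KI-FL replicate 4. Kif26b, an atypical kinesin of developmental signalling, had a log2 fold change of 0.49 in KI-96 mice (SE 0.20, adjusted p = 0.639 in edgeR's test), and 0.17 without KI-96 replicate 3 at 57.1 CPM. Kif2a, which takes microtubules apart in neurons, was at 53.8 to 64.2 CPM in WT and 57.3, 50.1, 50.4 and 40.7 CPM in KI-FL mice (log2 fold change -0.25, SE 0.11, adjusted p = 0.234 in edgeR's test). Between 10.1% and 29.3% of the exon bases of Kif20a, Kif2a, Kif4, Dctn6, Klc2 and Kif1bp overlap other genes, which limits these values in the same way.

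**Figure D4:**
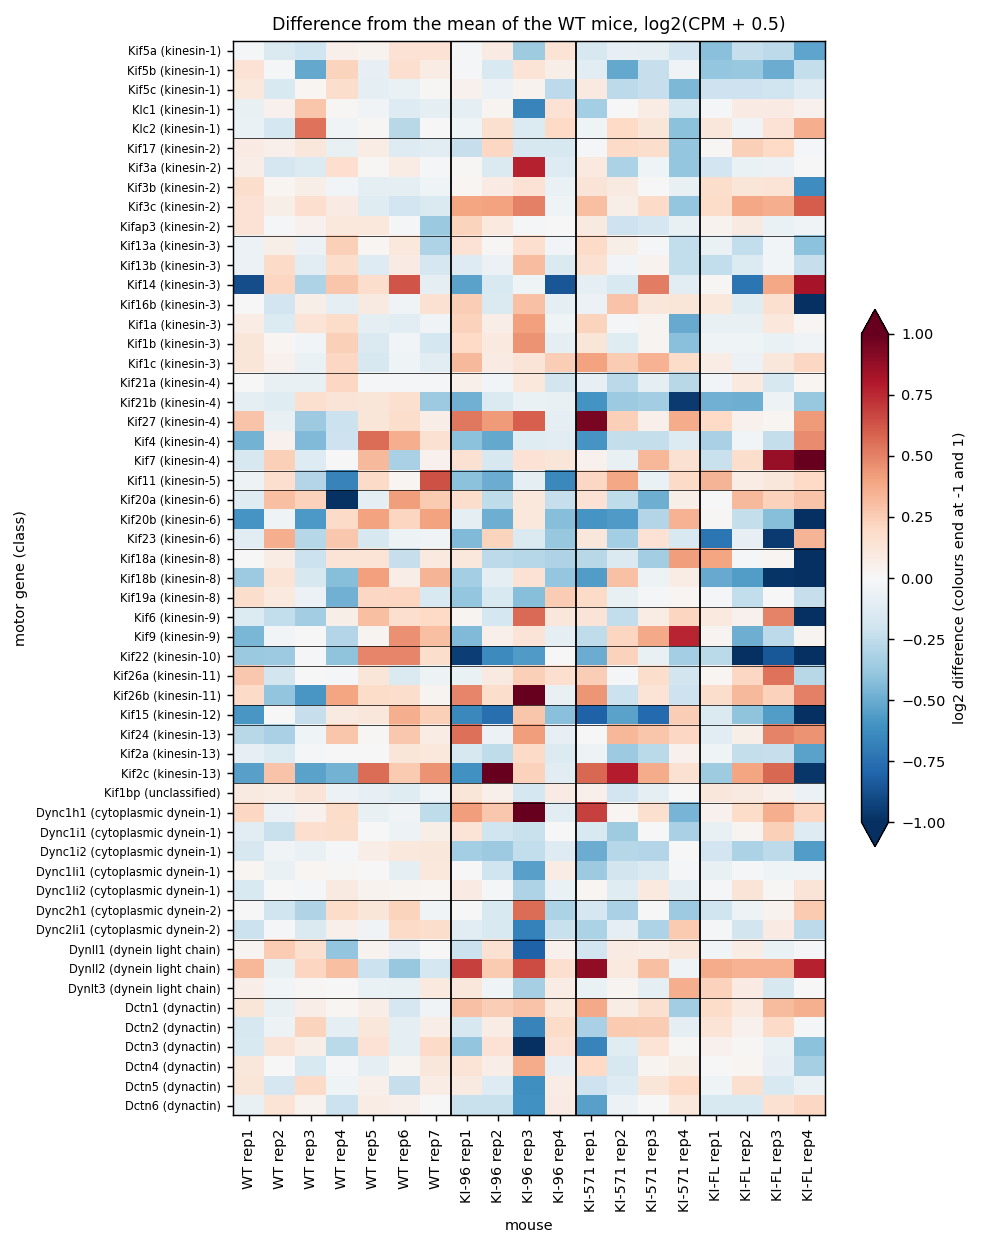
Log2(CPM + 0.5) of each of the 55 motor genes in each of the 19 mice as the difference from the WT mean, by class, with colours that end at -1 and 1. Dync1i2 is below the WT mean in all KI mice, though only just in KI-571 replicate 4. KI-96 replicate 3 is low in Dctn2, Dctn3, Dctn5 and Dctn6 and high in Dctn1, Dctn4 and Dync1h1, and the column of KI-FL replicate 4 holds the 5 genes at 0 counts.

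Cytoplasmic dynein-1 is a heavy chain dimer (Dync1h1) with intermediate chains (Dync1i1, Dync1i2) that bind dynactin, and light intermediate chains (Dync1li1, Dync1li2) that bind cargo adaptors. The intermediate chain Dync1i2 (ENSMUSG00000027012.15; chromosome 2 from 71211706 to 71263303, plus strand) was at 128 to 154 CPM in WT mice with a median of 142. It was at 113, 111, 120 and 130 CPM in KI-96 mice, 101, 117, 116 and 142 CPM in KI-571 mice and 125, 115, 119 and 96.9 CPM in KI-FL mice. Of the 12 KI mice, 10 lay under every WT mouse, and KI-96 replicate 4 and KI-571 replicate 4 did not. Log2 fold changes were -0.27 in KI-96 (SE 0.094, adjusted p = 0.586), -0.26 in KI-571 (SE 0.094, adjusted p = 0.409) and -0.33 in KI-FL mice (SE 0.094, adjusted p = 0.108) by edgeR's quasi-likelihood test. These 3 comparisons share the 7 WT mice.

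In the mean of the 3 KI genotypes against WT mice, Dync1i2 had the smallest p of the motor genes, at a log2 fold change of -0.29 (SE 0.070, adjusted p = 0.0882 in edgeR's test, 0.0194 with DESeq2). In that comparison 0 of 55 motor genes passed in edgeR's test (0.054% of all tested genes did), 11 had an unadjusted p under 0.05 (12.9%; 6 without WT replicate 6, 8.71%, 6 without WT replicate 7, 10.1%, and 7 without KI-571 replicate 3, 12%), and 2 passed with DESeq2 (1.33%), the other being Kif21b, which with the low-count filter left out also passed in edgeR (0.38%). WT replicates 5 to 7 were at 150 to 154 CPM of Dync1i2 and WT replicates 1 to 4 at 128 to 142 CPM. Against the latter alone, the log2 fold change was -0.22 (no pass in edgeR's test) over all KI mice, -0.20 in KI-96, -0.19 in KI-571 and -0.26 in KI-FL mice. With Xist as a covariate it was -0.20 in KI-96 mice.

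Dync1i1, the neuronal intermediate chain, was at 52.9 to 69.8 CPM in WT and 56.5 to 73.0 CPM in KI-FL mice. The log2 ratio of Dync1i2 to Dync1i1 was 1.09, 0.861, 0.706 and 0.779 in KI-FL mice and 1.21 ± 0.164 (SD, n = 7) in WT mice, where it ranged from 0.968 to 1.39. The difference was -0.35 (two-sided exact permutation test, p = 0.0121, adjusted p = 0.291 over 24 ratio tests), and -0.28 against WT replicates 1 to 4 (exact p = 0.0857). No ratio passed after adjustment among the 8 pairs of paralogs tested in the 3 KI genotypes, and 2 had an exact p under 0.05.

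Dync1h1 (ENSMUSG00000018707.13; chromosome 12 from 110601452 to 110666945, plus strand), with 15658 bases of exon among the longest of these genes, was at 513 to 709 CPM in WT mice. KI-96 mice were at 820, 742, 1379 and 572 CPM, a log2 fold change of 0.51 (SE 0.19, adjusted p = 0.629 in edgeR's test), and 0.20 without KI-96 replicate 3. It ranged from 443 to 985 CPM in KI-571 mice and from 634 to 789 CPM in KI-FL mice. The log2 fold changes of Dync1li1 and Dync1li2 lay between -0.17 and 0.062 in the KI genotypes. The dynein-2 genes of cilia, Dync2h1 and Dync2li1, were at 38.5 to 49.6 and 11.8 to 17.8 CPM in KI-571 mice, within or beside the WT ranges of 40.3 to 58.0 and 12.6 to 17.0 CPM. The class medians of dynein-1 were -0.072 in KI-96, -0.17 in KI-571 and 0.016 in KI-FL mice, and those of dynein-2 were -0.12, -0.16 and -0.046.

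Among the light chains, Dynll2 (ENSMUSG00000020483.14; chromosome 11 from 87979525 to 87987533, minus strand) was at 768 to 1254 CPM in WT mice with a median of 946. It was at 1601, 1198, 1572 and 1122 CPM in KI-96, 1847, 1069, 1228 and 966 CPM in KI-571 and 1292, 1269, 1267 and 1697 CPM in KI-FL mice. Every KI-FL mouse lay above every WT mouse, the lowest, at 1267 CPM, just above the highest WT mouse at 1254 CPM. The log2 fold change was 0.45 in KI-FL (SE 0.17, adjusted p = 0.200), 0.44 in KI-96 (SE 0.17, adjusted p = 0.629) and 0.33 in KI-571 mice (SE 0.17, adjusted p = 0.688) by edgeR's test. WT replicates 5 to 7, at 768 to 885 CPM, again lay apart from WT replicates 1 to 4, at 946 to 1254 CPM, and against the latter the value in KI-96 mice was 0.26 and over all KI mice 0.23 in place of 0.41. Dynll1, its near relative, was at 158 to 175 CPM in KI-FL and 126 to 199 CPM in WT mice, and Dynlt3 at 101 to 132 and 107 to 120 CPM. The log2 ratio of Dynll2 to Dynll1 exceeded that of WT mice by 0.65 in KI-96 (exact p = 0.0515, adjusted 0.32), by 0.29 in KI-571 (exact p = 0.333, adjusted 0.727) and by 0.47 in KI-FL mice (exact p = 0.0545, adjusted 0.32), in the same two-sided permutation tests.

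Dynactin is built around an actin-like filament, with Dctn1, also known as p150Glued, as the arm that holds microtubules and dynein, Dctn2 and Dctn3 in its shoulder and Dctn4, Dctn5 and Dctn6 at its pointed end. Dctn1 (ENSMUSG00000031865.16; chromosome 6 from 83165920 to 83200117, plus strand) was at 412 to 502 CPM in WT mice. It was at 567, 548, 564 and 496 CPM in KI-96 mice and 525, 494, 574 and 589 CPM in KI-FL mice, so that 3 of 4 in each lay above every WT mouse. The log2 fold changes were 0.23 (SE 0.11, adjusted p = 0.657) and 0.24 (SE 0.11, adjusted p = 0.269) by edgeR's test, and 0.089 in KI-571 mice, which spanned 363 to 602 CPM. The other 5 dynactin genes had log2 fold changes between -0.24 and 0.13 in the 3 KI genotypes. The class median was -0.12 in KI-96, 0.017 in KI-571 and -0.0032 in KI-FL mice.

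Long and short motor genes differed most in 3 libraries. For the 20 genes with at least 6000 bases of exon and the 6 with at most 3000, all at 10 CPM or more, the median log2 difference from the WT mean was 0.86 higher for the long than for the short genes in KI-96 replicate 3. This difference was 0.37 in KI-571 replicate 1, -0.40 in KI-571 replicate 4, and between -0.16 and 0.20 in the other 16 mice. Over all tested genes of these lengths, at any level, it was 0.45 in KI-96 replicate 3, but 0.099 in KI-571 replicate 1 and -0.12 in KI-571 replicate 4, inside the -0.16 to 0.24 of the other 16 mice, of which KI-FL replicate 4 was the highest. In KI-96 replicate 3 the short Dctn3 was at 28.0 CPM, under its lowest WT level of 53.6 CPM, and the dynactin genes had a median difference of -0.61. Among them, the long Dctn1 and Dctn4 lay above every WT mouse there, at 563.5 and 112.5 CPM. The same mouse had the highest Dync1h1 and Kif3a, named above, and its share of reads on no gene was the highest. A part of transcript length in the fold changes of KI-96 and KI-571 mice was not tested.

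**Figure D5:**
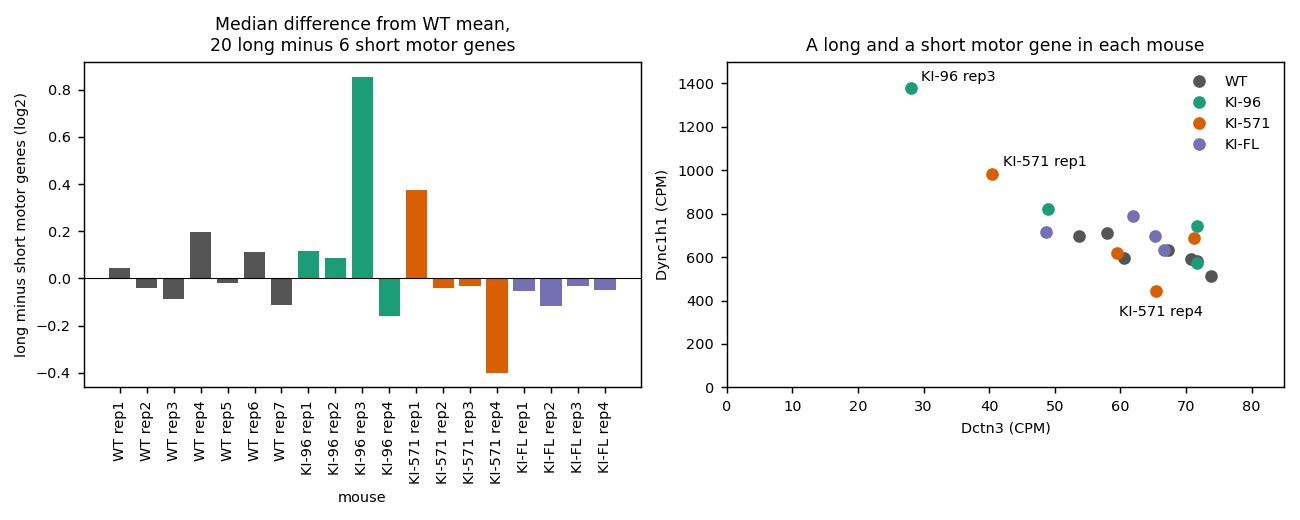
Left, the median log2 difference from the WT mean of 20 long minus that of 6 short motor genes in each mouse; right, CPM of the long Dync1h1 against the short Dctn3 in each mouse, coloured by genotype. KI-96 replicate 3 stands apart at 0.86, with 1379 CPM of Dync1h1 and 28.0 CPM of Dctn3.

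The KI genotypes were also compared with each other, in the same fit as above. The WT mice stayed in that fit and entered these comparisons through the shared spread. By edgeR's test with Benjamini-Hochberg adjustment, 0 of 55 motor genes passed between KI-96 and KI-FL mice (0% of all tested genes did), 0 for KI-571 against KI-FL (0.0864%) and 0 between KI-96 and KI-571 mice (0.0054%), and with DESeq2 also 0 (0.221%, 0.458% and 0.168% of all genes). At an unadjusted p under 0.05 there were 6 (8.9% of all tested genes), 5 (8.9%) and 3 (5.51%), and with Xist as a covariate 2 (3.32%), 3 (8.22%) and 1 (1.55%). All KI-96 mice and no KI-571 mouse had high Xist, so that the last of these rests on the Xist effect fitted in the other genotypes. Leaving out a mouse moved the third count most, to 12, of which 10 were higher in KI-96 mice, without KI-571 replicate 1 (8.93% of all tested genes), to 8 without KI-96 replicate 4 (9.22%), and to 1 without KI-571 replicate 2 (3.38%) or replicate 4 (3.95%). The first was 3 without KI-FL replicate 4 (7.6%) and the second 3 without KI-FL replicate 2 (10.2%). Kif5b, Kif18b and Kif13a were higher and Kif11 lower in all 4 KI-96 mice than in all 4 KI-FL mice, 4 of 55 genes where 3.16% of all tested genes did not overlap (1.91% higher, 1.25% lower). Kif5a was higher in all KI-571 than in all KI-FL mice (log2 fold change 0.23, SE 0.13, adjusted p = 0.615 in edgeR's test; 4.32% of all tested genes did not overlap, 2.28% higher), and 0.33 higher in KI-96 than in KI-FL mice with overlap (SE 0.13, adjusted p = 0.477 in edgeR's test). Kif3c was lower in KI-571 than in KI-FL mice by a log2 fold change of -0.33 (SE 0.14, adjusted p = 0.497 in edgeR's test), and -0.21 without KI-571 replicate 4. Kif11 was the only 1 of 55 that did not overlap between KI-96 and KI-571 mice, where 2.85% of all tested genes did not (1.31% lower). Against WT mice, 0 of 55 genes had KI-96 mice that did not overlap (1.24% of all tested genes), and 5 had such KI-FL mice (5.28%), namely Kif3c and Dynll2 above (2.9%) and Dync1i2, Kif5a and Kif18b below (2.38%).

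Motors act through adaptors, and a list of 51 adaptor and regulator genes, among them Kif1bp again, was read beside them. In edgeR's test 0 of the 51 passed the adjusted threshold in any KI genotype, and 6, 10 and 8 had an unadjusted p under 0.05 in mice of the 3 KI genotypes (KI-96, KI-571, KI-FL), beside 7.45%, 7.72% and 16.7% of all tested genes. As shares of the list these are 11.8%, 19.6% and 15.7%, and no test was made of them. With DESeq2 0, 1 and 0 passed, the 1 being Htt. The 2 with the smallest p in each genotype are given here. Htt itself, a scaffold for motors and the gene altered in these mice, was at 168 to 195 CPM in WT and 141, 124, 127 and 103.9 CPM in KI-571 mice, with no overlap (log2 fold change -0.53, SE 0.11, adjusted p = 0.0959 in edgeR's test; 0.67% of all tested genes lay lower without overlap). KI-96 mice at 143 to 240 CPM and KI-FL mice at 136.5 to 179 CPM overlapped WT. Every KI-96 mouse lay above every KI-571 mouse (log2 fold change 0.59, SE 0.13, adjusted p = 0.234 in edgeR's test), and with DESeq2 Htt passed there. Mapk8ip2, a JNK scaffold that binds kinesin light chains, was at 260 to 365 CPM in WT and at 371, 373, 390 and 427 CPM in KI-FL mice, all above the WT mice, as were 2.9% of all tested genes (log2 fold change 0.30, SE 0.11, adjusted p = 0.172 in edgeR's test).

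Klc3, a kinesin light chain outside the name rule, was low, at 2.69 to 5.10 CPM in WT mice, and its log2 fold change was 0.69 in KI-571 (SE 0.24, adjusted p = 0.404) and 0.68 in KI-FL mice (SE 0.24, adjusted p = 0.177) by edgeR's test, with overlap in both. Kidins220, a neurotrophin receptor scaffold carried by kinesin-1, was at 294 to 412 CPM in WT and 451, 431, 599 and 404 CPM in KI-96 mice (log2 fold change 0.39, SE 0.12, adjusted p = 0.552 in edgeR's test). Dynlt1b, a dynein light chain with near-identical copies among which reads can be split, was at 1.65 to 4.79 CPM in WT and 0.523 to 1.88 CPM in KI-96 mice, and its values are uncertain.

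The tracks themselves were read from 16 tubulin genes and 34 genes of microtubule-associated proteins and tubulin modifiers. In edgeR's test 0 of each list passed the adjusted threshold in any KI genotype, and with DESeq2 also 0. At an unadjusted p under 0.05 there were 1, 2 and 2 tubulins and 4, 0 and 1 of the others in mice of the 3 KI genotypes (KI-96, KI-571, KI-FL), again beside 7.45%, 7.72% and 16.7% of all tested genes. The median log2 fold changes were -0.050, -0.085 and 0.024 for the tubulins and 0.071, -0.022 and -0.021 for the microtubule-associated proteins, beside -0.015, -0.0089 and -0.028 over all tested genes.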

How the data were processed

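RNA-seq libraries of striatum from 19 mice were used. Raw counts of reads for each gene were deposited by the authors, made by trimming with BBduk, alignment with STAR to GRCm38 and counting with HTSeq. Versions of STAR and HTSeq and the strand setting are not given in the sources used here. Groups and replicate numbers were taken from the labels, and 4 columns of other samples were not used. The 5 HTSeq summary lines, equal to 20.8% to 32.8% of the reads in the table, were left out. Gene names were matched for 54079 of 54232 identifiers, and positions and exon lengths came from GENCODE M21.

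From the counts, 18521 genes passed filterByExpr (minimum count 10, minimum total 15) and were fitted with edgeR 4.0.16 in R 4.3.3, with TMM factors and 1 coefficient per genotype over all 19 mice, quasi-likelihood F-tests and Benjamini-Hochberg adjustment at 0.05. The paper's sacrifice batch and removed WT sample are not in the labels and were not modelled. Log2 CPM used a prior count of 2. Levels in single mice are TMM-scaled CPM. Ratios used a pseudocount of 0.5 and two-sided exact permutation tests over 330 splits. The fits were tested on simulated data. Each column was taken as 1 mouse, and p-values measure the spread between these mice. The precision of low genes is limited by their counts, and intervals of counts would cover counting error only.

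The motor genes and the gene lists were chosen with earlier results of these data known. Genes were named if they passed the threshold, had 1 of the 5 smallest p against WT or the 3 smallest in other comparisons, represented a class, were highest or lowest of a class, or formed a ratio with an exact p under 0.05. Of the adaptors, the 2 smallest p per genotype were named. Alternatives were DESeq2 1.42.0, its size factors, other filters, Xist as a covariate, only the groups compared, WT replicates 1 to 4, a replicate block, a threshold of 0.1 and each mouse left out. Leaving out 3 libraries was added after seeing the data.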

Additional observations from a re-analysis of the deposited data

Results flagged for a closer look

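In 60 groups of 4 or 7 mice (15 motor genes in 4 genotypes), a mouse lay far from the rest of its group in 4, where chance gives 3. For Dynll2 this was KI-FL replicate 4, at 1697 CPM beside 1267 to 1292 CPM in the rest of its genotype. For Kif5b it was WT replicate 3, at 300.0 CPM beside 406 to 501 CPM. Kif21a stood at 249 CPM in WT replicate 4, and the remaining 6 WT mice spanned 205 to 215 CPM. Kif7 stood at 3.27 CPM in KI-96 replicate 2, from 50 counts, and the remaining KI-96 mice spanned 4.10 to 4.19 CPM.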

How the results depend on the processing

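Of 750 values of named genes under the alternatives, all 750 kept the direction of the value reported. These genes were chosen by small p in the same data and the alternatives reuse most of the same mice, so this was largely fixed beforehand. The number of motor genes past the adjusted threshold stayed at 0 in KI-96 mice against WT and between KI genotypes under every alternative. In KI-571 mice it was 1 with DESeq2 and 1 without the filter on low counts (Kif21b in both). In KI-FL mice it was 5 with DESeq2 (Kif7, Dync1i2, Kif18b, Kif5a and Kif5b) and 2 with only the groups compared (Kif5a and Kif3c, of 1.89% of all tested genes). For all KI mice against WT it was 1 at a threshold of 0.1 (Dync1i2), 2 with DESeq2, 1 without the filter (Kif21b), and 0 to 1 with each mouse left out, the 1 being Dync1i2 without KI-571 replicate 4. The motor gene median of KI-571 minus KI-FL was -0.053 to 0.024 with each mouse left out, the upper value without KI-571 replicate 1. Between KI-96 and KI-571 mice it was 0.085 with Xist as a covariate and -0.032 to 0.043 with each mouse left out, the lower value without KI-571 replicate 1. The number of paralog ratios with an exact p under 0.05 was 1 against WT replicates 1 to 4 and 1 to 4 with each mouse left out (1 without WT replicate 5 or 6 or KI-571 replicate 1 or 4, 4 without WT replicate 4). In the paired analysis with a replicate block it was 0, where 4 pairs cannot go below an exact p of 0.125; same-numbered mice are different animals, their deviations from the group means correlated at -0.128 to 0.29, and the block changed no count of motor genes past the adjusted threshold. At an unadjusted p under 0.05 the block moved the count against WT from 9 to 2 in KI-96 mice. Of all tested genes, 7.45% passed there without the block and 2.92% with it. In KI-FL mice the count moved from 11 to 6 (16.7% to 8.06% of all tested genes). For all KI mice against WT it moved from 11 to 3 (12.9% to 4.38%). That last count was also 3 against WT replicates 1 to 4 (4.51%) and 5 with Xist as a covariate (8.3%). With only the groups compared, 54 motor genes were tested between KI genotypes. The count was 3 for KI-96 against KI-FL (3.54%), 3 for KI-571 against KI-FL (5.44%) and 2 for KI-96 against KI-571 (5.1%). Without the 3 libraries it was 3 for KI-96 against KI-FL (6.3%). The cause of these changes was not tested. Counts of any pair of mice in a genotype differed beyond sampling noise (chi-square over its degrees of freedom, 8.56 or more). At 12669809 to 26388542 reads counted on genes per mouse, depth limits the lowest motor genes most, such as Kif18b with 0 to 23 counts per mouse.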
